A study of Mus musculus with 48 samples.

Results

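The genes of the cytosolic ribosomal proteins were followed through adipogenic differentiation of cells with and without the nucleosome-binding proteins HMGN1 and HMGN2. The group holds every gene in both deposited tables whose symbol is Rpl or Rps followed by digits and an optional letter or X, together with Rplp1, Rplp2 and Rpsa. This gave 82 of 55450 genes, 50 of the large ribosomal subunit and 32 of the small subunit. Rplp0, the Rps6k kinases and 298 pseudogene symbols of these genes that carry -ps were left out by the rule, which used names and no measured value. Of the 82 genes, 14 lie on chromosome 7, and chromosomes 9, 11 and 17 hold 7 each (mm10). Rpl6l, Rpl32l and Rps4l have protein gene names but are annotated as processed pseudogenes in GENCODE M21.

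RNA was sequenced from white preadipocytes of inguinal fat (iWAT) and from mouse embryonic fibroblasts (MEFs), both primary cells of C57BL/6 mice, either wild type (WT) or carrying a germline knockout of both Hmgn1 and Hmgn2 in every cell (DKO). Preadipocytes from adult mice were taken at days 0, 3, 6 and 9 and MEFs from mid-gestation embryos at days 0, 4, 8 and 12, in 3 libraries of either genotype on each day, 48 altogether. From 2 days after confluence by the labels, or at confluence for preadipocytes by the methods, both genotypes received the same cocktail of insulin, dexamethasone, IBMX, T3 and rosiglitazone, for 4 days in preadipocytes and 8 days in MEFs, and then insulin with T3 for 4 days. The comparisons ask how ribosomal protein mRNA differs between DKO and WT cells at each day, how it moves during differentiation, and how the starting cells differ. The study describes its replicates as biological, but whether libraries of a group came from separate animals or cultures is not given in the sources used here, so p-values measure the spread between these libraries.

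Each ribosome has a large and a small subunit, and almost every ribosomal protein is present at a single copy per ribosome, so their genes are usually expressed in a coordinated way. Their mRNAs belong to the most abundant in a dividing cell, and most start with a C followed by a run of pyrimidines, the terminal oligopyrimidine (TOP) motif, through which mTOR signalling controls their translation. Synthesis of ribosomes is coupled to growth and division, and adipocyte precursors divide briefly after induction before they leave the cell cycle and store lipid.

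The start of the transcript is shown for a few members because the TOP motif is what links these genes. Of the 82 genes, 60 have a start in the RefSeq promoter table (GRCm38.p6), and 22 do not. A C followed directly by at least 4 pyrimidines (C or T), read from the annotated start on the sense strand, was found for 14 of 60 members (23.3%) and for 813 of 27025 genes of the table (3.01%). When the run could begin up to 5 bases on either side, 29 members (48.3%) and 5718 genes (21.2%) had it. Each line below gives 10 bases before the annotated start and 20 from it, with the run in capitals.
Rps6, substrate of the ribosomal S6 kinase (chr4:86857348-86857377, minus strand): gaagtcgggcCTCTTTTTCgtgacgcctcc
Rps10 (chr17:27635225-27635254, minus strand): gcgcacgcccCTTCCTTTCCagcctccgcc
Rps21 (chr2:180257369-180257398, plus strand): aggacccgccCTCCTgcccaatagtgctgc
Rpl28 (chr7:4792955-4792984, plus strand): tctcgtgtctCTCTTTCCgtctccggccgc
Rpl38 (chr11:114668570-114668599, plus strand): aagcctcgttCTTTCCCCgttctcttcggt
Rps27 (chr3:90213629-90213658, minus strand): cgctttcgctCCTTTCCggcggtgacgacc
Rps27l, paralogue of Rps27 (chr9:66946076-66946105, plus strand): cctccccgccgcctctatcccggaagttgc
Rpl39l, paralogue of Rpl39 (chr16:10170218-10170247, plus strand): aggcctttccggatttccggtggtcgccat
No run begins at the annotated start base of the last 2, nor at that of Rpl39 itself, although pyrimidine runs that begin at other bases can be read in the windows printed for Rps27l and Rpl39l.

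Libraries held 19809397 to 36006696 counts in preadipocytes and 18962483 to 33083213 in MEFs. Counts are RSEM's expected counts, which divide reads that match several genes, and 79.3% to 91.5% of a library's values for the 82 genes were not whole against 5.49% to 7.9% of all its values. The second share is over all 55450 genes, those without counts included, so the sets are unlike in level. Hmgn2 lay at or under 0.372 CPM, counts scaled to the size of the library, in every DKO library and at 34.6 to 189.2 CPM in WT libraries. Counts at Hmgn1 remained in DKO cells, at 99.6 ± 5.53 CPM against 160.4 ± 18.9 CPM in WT preadipocytes at day 0 and at 82.9 ± 6.73 against 83.8 ± 2.21 CPM at day 9 (mean ± SD, n = 3), and counts per gene do not show which exons they come from. By the paper, DKO cells lack transcripts of the deleted exons and express neither HMGN1 nor HMGN2 protein. Of the 8 adipocyte markers, Adipoq, Cidec and Lep were under 0.5 CPM in WT preadipocytes at day 0, and the summed level of the list was 165.8 to 449.7 CPM there and 27250 to 28530 CPM at day 9. In WT MEFs it went from 808 to 979 CPM at day 0 to 15270 to 15630 CPM at day 12. Each of the 7 preadipocyte markers reached 0.5 CPM in some library of WT preadipocytes at day 0 (summed 2373 to 2676 CPM). The same held in WT MEFs at day 0 (2105 to 2239 CPM), and 3 of the 7 were higher and 3 lower in preadipocytes than in MEFs. The 4 fibroblast markers summed to 30890 to 33410 CPM in these preadipocytes and 26250 to 30550 CPM in these MEFs. So neither list is particular to 1 of these cell types. Here and below CPM are scaled with TMM factors over all 48 libraries, and fold changes are log2 values of edgeR's quasi-likelihood fit with their standard error (SE) and Benjamini-Hochberg adjusted p over all genes tested. A gene was called at an adjusted p under 0.05. Of the 82 genes, 80 passed the filter on low counts in every comparison. Rpl10l had no count in any library (under 3 counts per library), and Rpl3l, the heart and skeletal muscle paralogue of Rpl3, had at most 3 counts and counts in 7 libraries only.

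Together the 82 genes took up 2.06% to 4.99% of a library's counts. In WT preadipocytes the share was 3.65% ± 0.388, 4.64% ± 0.0772, 3.35% ± 0.0667 and 2.75% ± 0.0498 on days 0, 3, 6 and 9 (mean ± SD, n = 3). WT MEFs had 3.17% ± 0.0924, 4.19% ± 0.225, 3.89% ± 0.283 and 2.59% ± 0.0174 on days 0, 4, 8 and 12. So in both cell types the share was highest at the first sampling after induction and lowest at the last. At the last day DKO libraries lay below all WT libraries, with 2.15% to 2.28% against 2.7% to 2.8% in preadipocytes and 2.06% to 2.18% against 2.58% to 2.61% in MEFs. The same held in preadipocytes at day 6 (2.64% to 2.92% against 3.27% to 3.40%), whereas the genotypes overlapped at days 0 and 3 and in MEFs at days 0, 4 and 8. Counts of the mitochondrial genome took larger shares in DKO cells at these times, 8.22% to 9.5% against 6.8% to 7.41% in preadipocytes at day 6, 8.29% to 9.28% against 7.18% to 7.72% at day 9 and 5.05% to 5.64% against 4.13% to 4.29% in MEFs at day 12, and their part in the result was not tested. They were also larger in DKO MEFs at day 8 (4.47% to 4.6% against 3.88% to 4.42%), where the ribosomal protein shares overlapped. In bulk RNA fewer cells of a type and less RNA per cell cannot be told apart.

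**Figure D1:**
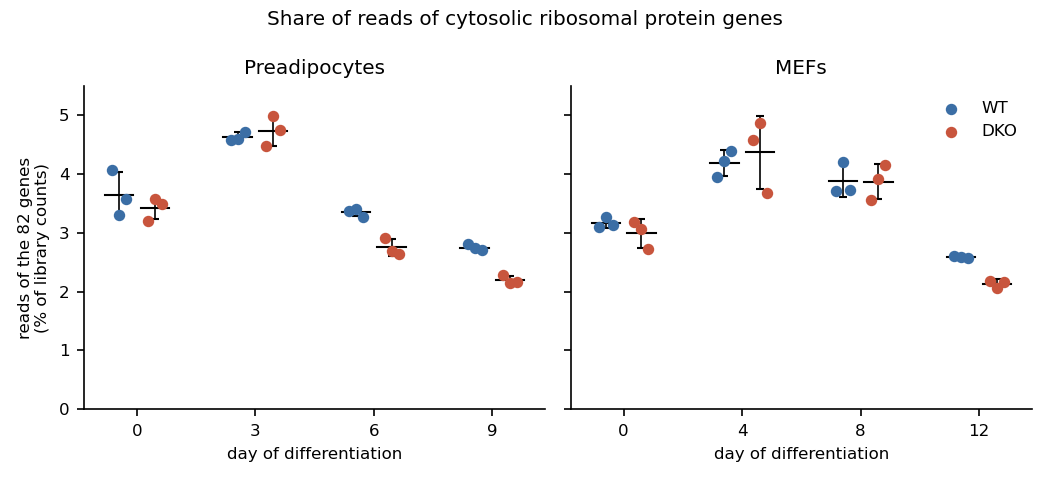
Reads of the 82 genes as a percentage of a library's counts (y axis) by day (x axis) in preadipocytes and MEFs. Points are libraries (blue WT, red DKO), lines and bars the mean ± SD of 3. DKO points lie below all WT points at days 6 and 9 in preadipocytes and at day 12 in MEFs.

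Levels between genes were compared per length, as CPM per kilobase of the shortest principal transcript. Rplp1, an acidic protein of the ribosomal stalk that recruits elongation factors, was the highest member in WT cells at day 0, at 1859 ± 326.7 CPM per kilobase in preadipocytes and 1143 ± 39.1 in MEFs. Next in preadipocytes were Rps12 (1326 ± 180.0), Rps18 (1135 ± 91.3) and Rpl23a (1046 ± 88.3), neighbours whose ranges of mean ± SD overlap. In MEFs Rps18 (943 ± 44.5), Rpl10 (931 ± 32.9) and Rps12 (892 ± 31.1) followed and did not differ from each other beyond their spread. The bottom of the order was shared by the paralogues, with Rps4l at 30.9 ± 3.72, Rpl6l at 16.6 ± 0.717, Rpl39l at 12.9 ± 6.39 and Rpl32l at 8.33 ± 2.15 CPM per kilobase in preadipocytes, and 17.3 ± 1.2, 4.74 ± 0.512, 6.76 ± 0.856 and 3.29 ± 0.069 in MEFs. Rps20 stood low (131 ± 18.9 and 101 ± 3.6) on an annotated transcript of 3706 bases, so its place depends on the annotation.

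In MEFs no member passed the genotype by day test given below. Calls between DKO and WT MEFs were most, and the median change largest, at day 12, the end of differentiation. There 66 of 80 members were lower in DKO cells and 2 were higher, where 15.8% and 17.3% of all 15319 tested genes were lower and higher. The shift was small and even. The median member changed by -0.23 on the log2 scale against 0.00 for all genes, and the interquartile range was 0.093 log2 units for the members against 0.371 for all genes. A fold of at least 1.5 was passed by 1 of the 68 called members and by 7.98% of all genes. The large subunit had 37 lower members of 48 (median -0.23) and the small subunit 29 of 32 (median -0.23).

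Among small subunit genes Rps20 fell the most in MEFs at day 12, from 307.7, 294.0 and 296.8 CPM in WT libraries to 238.2, 208.3 and 220.0 CPM in DKO libraries, a log2 fold change of -0.43 ± 0.05 (SE, adjusted p = 4.86e-06). Rps21 had 111.0, 113.7 and 107.8 CPM in WT and 89.0, 83.9 and 80.9 CPM in DKO libraries (-0.39 ± 0.05, adjusted p = 8.77e-06). Rps7 was at 366.5, 362.6 and 357.6 CPM and at 300.9, 277.6 and 285.0 CPM (-0.33 ± 0.04, adjusted p = 1.62e-05). These genes were named because they had the smallest p among called lower members whose genotypes did not overlap. Rps4x, the X-linked protein of the decoding subunit, fell by 0.30 ± 0.05 (adjusted p = 8.15e-05), and Rps19, the gene most often mutated in Diamond-Blackfan anaemia, by 0.26 ± 0.05 (adjusted p = 0.000535). Rps3, which lines the mRNA entry channel, fell by 0.25 ± 0.05 and Rpsa, the laminin receptor precursor, by 0.21 ± 0.04 (adjusted p = 0.000823 and 0.00119). Rps28, Rps29, Rps18 and Rps6 fell by 0.27, 0.20, 0.16 and 0.15. Rps27a, whose product is made as a fusion with ubiquitin, fell by 0.23 ± 0.05 (adjusted p = 0.00481).

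Among large subunit genes Rpl3, next to the peptidyl transferase centre, had 645.1, 623.0 and 633.8 CPM in WT and 566.4, 500.0 and 537.9 CPM in DKO MEFs at day 12 (-0.25 ± 0.05, adjusted p = 0.000787). Rpl4, which lines the exit tunnel, went from 835.4, 803.1 and 813.4 CPM to 713.9, 666.2 and 686.7 CPM (-0.25 ± 0.04, adjusted p = 0.000298). Rpl10, a late joining protein of the large subunit, and Rpl10a, at the L1 stalk, fell by 0.23 and 0.24, and Rpl22 by 0.23. Rplp1 fell by 0.29 ± 0.08 (adjusted p = 0.0218), with 334.0 to 429.5 CPM in DKO and 457.2 to 478.5 CPM in WT libraries, while its stalk partner Rplp2 had 0.02 ± 0.08 (adjusted p = 0.861) and overlapping libraries. Rpl5 and Rpl11, which with the small RNA of the large subunit form the particle that binds MDM2, were not called at -0.08 ± 0.04 and -0.10 ± 0.04 (adjusted p = 0.147 and 0.0667). The other members not called at day 12 were Rpl24, Rpl36, Rpl38, Rpl41, Rpl9, Rps25, Rps27l and the pseudogenes Rpl32l and Rpl6l.

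Both members that rose are paralogues. Rpl39l, a copy of Rpl39 known for its expression in testis (mm10 chr16:10170226-10174911, plus strand), rose from 7.64, 7.92 and 7.45 CPM in WT to 14.1, 18.8 and 15.8 CPM in DKO MEFs at day 12, a log2 fold change of 1.07 ± 0.11 (adjusted p = 1.96e-06). Rpl39 itself went the other way, from 186.1, 193.3 and 193.4 CPM to 159.0, 131.4 and 156.6 CPM. Rps4l (chr6:148354656-148355598, plus strand) rose from 14.1, 14.5 and 13.1 CPM to 16.5, 19.8 and 15.4 CPM (0.31 ± 0.10, adjusted p = 0.0242). Its call was lost with library size in place of TMM (0.25, adjusted p = 0.0591) and when WT replicate 1 or 3 or DKO replicate 2 was left out, at adjusted p = 0.0694, 0.108 and 0.0993.

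**Figure D2:**
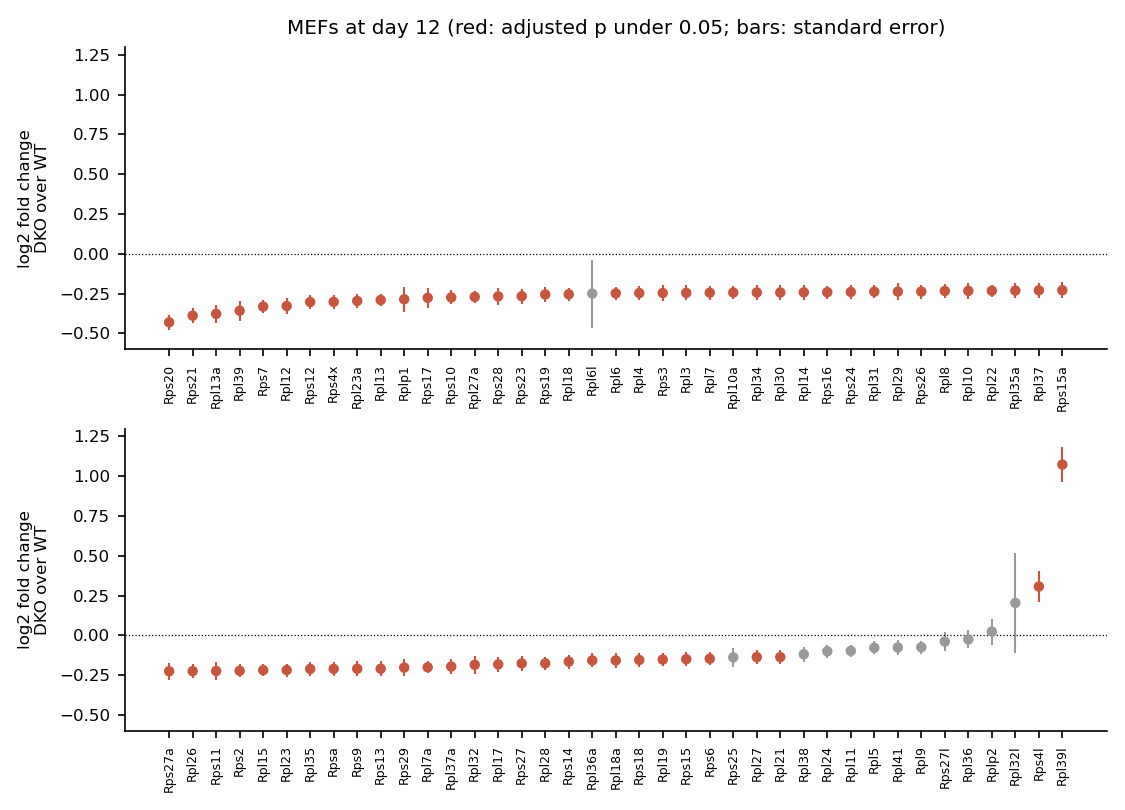
Log2 fold change of DKO over WT (y axis) for 78 of the 80 tested members in MEFs at day 12, sorted along the x axis over 2 rows, with the standard error as bars. Red members had an adjusted p under 0.05: 64 of those drawn lie below 0, and Rps4l and Rpl39l lie above it.

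Beside this result the adipocyte markers summed to 22840 to 24300 CPM in DKO and 15270 to 15630 CPM in WT MEFs at day 12, with 7 of 8 genes higher. The 5 macrophage markers summed to 2075 to 2397 CPM in DKO and 3373 to 3423 CPM in WT MEFs, and all 5 were lower. Of 30 cell cycle genes, 18 were lower (median -0.44), among them Top2a, which untangles DNA in dividing cells (-0.67 ± 0.11, adjusted p = 0.00026). The 4 fibroblast markers were all lower, and the 5 brown adipocyte markers were all higher (305.4 to 315.3 against 135.3 to 142.6 CPM). Of the 7 preadipocyte markers 1 was higher and 3 were lower (summed 1426 to 1591 against 1991 to 2061 CPM). Neural and endothelial markers were low, at 18.8 to 23.7 and 6.0 to 8.45 CPM in DKO and 38.1 to 38.3 and 8.21 to 8.73 CPM in WT libraries, with Elavl3 and Pecam1 under 0.5 CPM. Epithelial (3.32 to 5.26 against 2.33 to 3.15 CPM) and muscle markers (1.41 to 2.34 against 0.706 to 1.26 CPM) were close to 0, with Epcam, Myod1 and Myog under 0.5 CPM in both genotypes. The part of these cell types in the ribosomal protein result was not tested.

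At the earlier days no member passed the test in MEFs. At day 0, 0 of 80 members and 0.102% of all genes were called (median -0.09), and 2 members and 9.28% of all genes had an unadjusted p under 0.05. At day 4 the calls were 0 and 0.0905% (median 0.05), with 2 members and 5.91% of all genes under 0.05 unadjusted. At day 8 they were 0 and 0.0595% (median -0.02), with 2 members and 8.57% of all genes under 0.05 unadjusted. DESeq2 called 0, 1 and 0 members at these days, the 1 being Rpl39l at day 4 (0.70, adjusted p = 0.0492). Without DKO replicate 1, 1 member was called at day 0. The replicates of DKO MEFs were uneven at day 4, where replicate 3 had only 2 of 80 members above its group's mean and replicate 2 had 72. Over all genes, the chi-square per degree of freedom between MEF replicates reached 168.22, 85.76 and 157.29 at days 0, 4 and 8. At day 12 it was at most 12.58, so fewer calls at the earlier days do not show smaller changes. Largest in size were Rps4l at day 0 (-0.73 ± 0.38, adjusted p = 0.553) and Rpl39l at days 4 and 8 (0.70 ± 0.16 and 0.63 ± 0.47, adjusted p = 0.445 and 0.758).

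In preadipocytes members passed the test at days 6 and 9. At day 6, 13 of 80 members were lower in DKO cells and 0 higher, against 9.96% of all genes lower, and the median member changed by -0.21. At day 9, 5 members were lower and 0 higher, against 0.939% of all genes lower, with a median of -0.25. None of them passed a fold of 1.5, which 11.6% and 1.24% of all genes did beside the adjusted p. The 13 called at day 6 were Rpl12, Rpl13, Rpl23, Rpl27a, Rpl37a, Rpl39, Rps4x, Rps10, Rps12, Rps15a, Rps16, Rps20 and Rps26, and those at day 9 were Rpl13, Rpl27a, Rpl37a, Rps10 and Rps26. All 13 and all 5 were also among the 66 members lower in MEFs at day 12, of which they are 19.7% and 7.58%, but that list holds 82.5% of all tested members. The counts moved with the processing, from 6 with no filter to 48 with library size scaling at day 6 and from 0 with a replicate block to 52 with DESeq2 at day 9. Single libraries moved both counts too. At day 6, 0 members were called when WT replicate 1 or 3 or DKO replicate 3 was left out, and 2, 4 and 5 were called when DKO replicate 1, WT replicate 2 or DKO replicate 2 was. At day 9 leaving out DKO replicate 2 gave 40 calls and leaving out any other library gave 0.

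Values at these days show how narrow the differences were. Rpl27a at day 6 had 350.3, 362.6 and 359.1 CPM in WT and 292.3, 297.8 and 276.7 CPM in DKO preadipocytes (-0.33 ± 0.08, adjusted p = 0.0231). Rpl39, at the wall of the exit tunnel, had 257.1, 246.2 and 255.4 CPM and 197.3, 220.9 and 184.3 CPM (-0.35 ± 0.09, adjusted p = 0.025). Rpl12, part of the stalk base, went from 515.7, 502.7 and 494.6 CPM to 394.5, 432.2 and 366.7 CPM (-0.36 ± 0.09, adjusted p = 0.0261). That no WT library overlapped a DKO library was a condition for naming these genes.

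At day 9 Rps10, a protein of the small subunit's head, had 315.8, 307.0 and 311.2 CPM in WT and 241.0, 249.0 and 243.1 CPM in DKO libraries (-0.38 ± 0.06, adjusted p = 0.036). Rpl13 went from 326.3, 327.4 and 319.1 CPM to 263.8, 255.4 and 258.2 CPM (-0.36 ± 0.06, adjusted p = 0.0418). Rpl37a went from 275.4, 287.5 and 281.4 CPM to 227.4, 227.4 and 224.1 CPM (-0.35 ± 0.06, adjusted p = 0.0424). Lack of overlap between the genotypes was again a condition for naming these genes. The pseudogene Rpl32l had the largest change at both days, -0.69 ± 0.25 at day 6 and -0.88 ± 0.27 at day 9, and was not called (adjusted p = 0.0794 and 0.0988).

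Macrophage markers summed to 1876 to 3895 CPM in DKO and 5104 to 8649 CPM in WT preadipocytes at day 6, and to 1210 to 2481 and 2534 to 5433 CPM at day 9. Of these 5 genes 1 was lower at day 6 and 0 passed the test at day 9. Adipocyte markers summed to 28460 to 34930 CPM in DKO and 21590 to 25780 CPM in WT libraries at day 6, and to 34690 to 42510 and 27250 to 28530 CPM at day 9. Of the 7 tested adipocyte markers 4 were higher at day 6 and 1 at day 9. Of the cell cycle list 23 of 30 genes were lower at day 6 (median -0.87) and 0 passed the test at day 9 (median -0.52). Fibroblast markers summed to 3817 to 5606 CPM in DKO and 11700 to 14150 CPM in WT libraries at day 6, with 3 of 4 lower, and to 5252 to 14740 and 14090 to 15170 CPM at day 9. All 5 brown adipocyte markers were higher at day 6 (679.5 to 859.0 against 226.9 to 339.3 CPM) and 1 at day 9. Preadipocyte markers summed to 462.9 to 803.6 CPM in DKO and 1029 to 1425 CPM in WT libraries at day 6. Of 6 tested there, 1 was higher and 2 were lower. At day 9, 0 passed the test (677.0 to 1505 against 1223 to 1605 CPM). Lep was under 0.5 CPM at both days, and the defining markers of epithelium (Cdh1, Epcam, Krt8 and Krt18) and muscle (Myh3, Myod1 and Myog) were under 0.5 CPM in both genotypes. Endothelial markers summed to at most 10.5 CPM. Neural markers summed to at most 11.9 CPM, and both tested ones were lower in DKO cells at day 6. The part of other cell types in the lower ribosomal protein levels was not tested.

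Before differentiation and at day 3 no member was called in preadipocytes. At day 0, 0 of 80 members and 0.218% of all genes were called (median -0.08), and at day 3, 0 members and 0.351% of all genes (median 0.04). An unadjusted p under 0.05 was found for 1 member and 7.86% of all genes at day 0, and for 2 members and 12.2% at day 3. DESeq2 called 0 members at either day. Rpl39 had the largest change at day 0 (-0.35 ± 0.19, adjusted p = 0.704), with WT replicate 1 at 411.2 CPM above the other 5 libraries, which held 233.0 to 284.7 CPM. That library was also high for most members, with 75 of 80 above the mean of its group. Rpl39l had the largest change at day 3 (1.02 ± 0.41, adjusted p = 0.395).

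Whether the DKO effect changed between the days was tested with a genotype by day term. In preadipocytes 1 of 80 members and 2.08% of all genes were called, and 20 members and 18.3% of all genes had an unadjusted p under 0.05. DESeq2 called 15. Leaving out single libraries gave 0 to 4 calls. The calls were 0 without WT replicate 2 or DKO replicate 2 of day 0, DKO replicate 2 of day 3, WT or DKO replicate 3 of day 6, any WT library of day 9 or DKO replicate 1 of day 9. They were 2 without WT replicate 1 of day 0, WT replicate 2 of day 3 or WT replicate 2 of day 6, 3 without DKO replicate 2 of day 6 or of day 9, and 4 without DKO replicate 1 of day 3. In MEFs the interaction called 0 of 80 members and 0.0177% of all genes, and DESeq2 called 2. Under an unadjusted p of 0.05 were 20 members and 9.24% of all genes. Without DKO replicate 1 of day 0, 3 were called.

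Mitochondrial ribosomal proteins, which serve the separate ribosome of the mitochondrion, went the other way. Of 78 tested genes 46 were higher and 0 lower in DKO preadipocytes at day 6 (median 0.37), 3 and 0 at day 9 (median 0.32), and 58 and 0 in MEFs at day 12 (median 0.27). Mrps36 was higher in DKO preadipocytes by 0.66 ± 0.09 at day 6 and 0.74 ± 0.08 at day 9 (adjusted p = 0.00431 and 0.015), and Mrpl12 was higher in DKO MEFs by 0.55 ± 0.05 (adjusted p = 2.17e-07). At days 0 and 3 of preadipocytes and days 0, 4 and 8 of MEFs none passed the test, with medians of -0.02, 0.24, 0.01, 0.12 and 0.23.

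**Figure D3:**
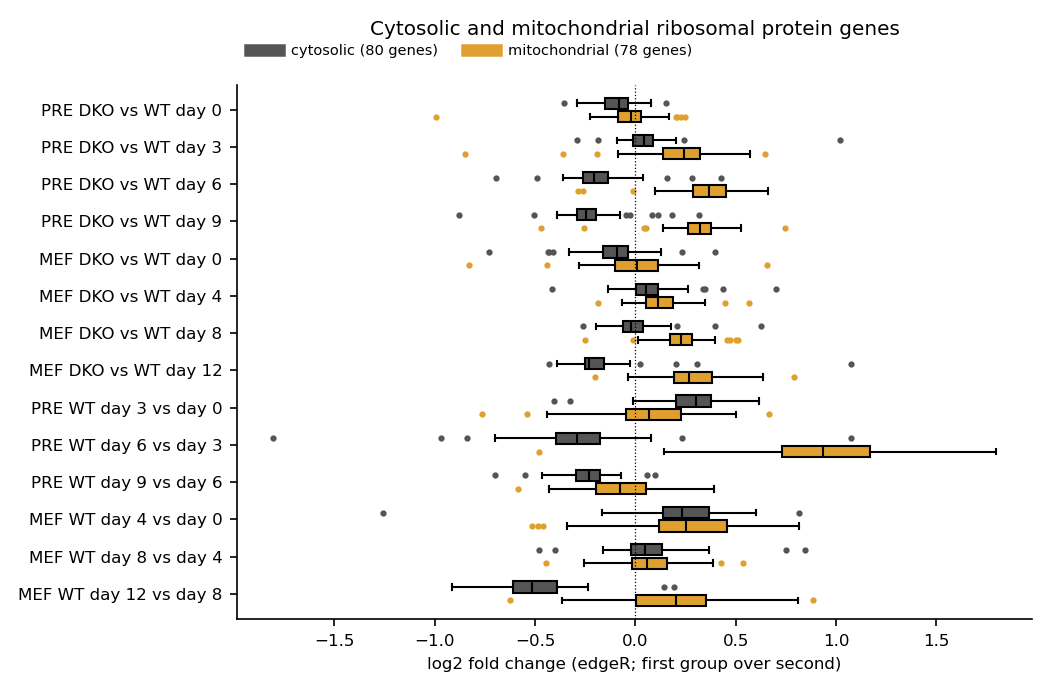
Log2 fold changes (x axis) of 80 cytosolic (grey) and 78 mitochondrial (orange) ribosomal protein genes in 14 comparisons (y axis). Boxes span the quartiles with the median as a line, whiskers reach 1.5 interquartile ranges and dots are genes beyond them. Cytosolic medians of -0.21, -0.25 and -0.23 and mitochondrial medians of 0.37, 0.32 and 0.27 stand on either side of 0 in DKO cells at days 6, 9 and 12.

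Other genes of the translation machinery were followed in the same 3 comparisons, where 11.6%, 1.17% and 17.3% of all genes were higher and 9.96%, 0.939% and 15.8% lower. Of 15 elongation factors and other TOP mRNAs 2 were lower in DKO preadipocytes at day 6, Hnrnpa1 (-0.46 ± 0.11) and Nap1l1 (-0.39 ± 0.09), 0 at day 9 and 10 in MEFs at day 12, led by Eef1b2, an exchange factor of translation elongation (-0.36 ± 0.04, adjusted p = 6.09e-06). Of 36 initiation factors 4 were higher at day 6, 0 passed at day 9, and 7 were higher and 3 lower in MEFs at day 12. Eif1 rose by 0.21 ± 0.05 and Eif3f fell by 0.26 ± 0.06. Of 61 ribosome biogenesis genes 4 were higher and 2 lower at day 6, 0 passed at day 9, and 4 were higher and 7 lower in MEFs at day 12. Of the MYC and mTOR regulators (24 listed) 3 were higher and 1 lower at day 6, 0 passed at day 9, and 7 were higher and 3 lower in MEFs at day 12. Eif4ebp1, the translation repressor that mTOR inactivates, rose by 0.62 ± 0.05 in DKO MEFs (adjusted p = 9.5e-08), Mtor rose by 0.32 ± 0.05 and Trp53 fell by 0.31 ± 0.06. Medians of these lists lay between -0.19 and 0.09.

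During differentiation of WT preadipocytes the members first rose and then fell. From day 0 to day 3, 53 of 80 members rose and 1 fell, against 20.7% and 21.4% of all genes, with a median of 0.30. A fold of 1.5 was passed by 2 members and 24.7% of all genes. Rps9 rose from 622.6, 582.4 and 559.0 CPM to 927.6, 962.8 and 924.2 CPM (0.62 ± 0.08, adjusted p = 0.000173). Rpl28 went from 331.6, 346.0 and 317.2 CPM to 505.5, 574.7 and 502.2 CPM (0.61 ± 0.08, adjusted p = 0.00017), and Rps16 rose by 0.56 ± 0.07 (adjusted p = 0.000149). The member that fell was Rps27l, a target of p53 and paralogue of Rps27, from 137.9, 105.2 and 103.3 CPM to 97.7, 94.7 and 95.3 CPM (-0.33 ± 0.10, adjusted p = 0.0183). This call was lost without day 0 replicate 1 (-0.18, adjusted p = 0.0777) and without day 3 replicate 2 (adjusted p = 0.0517). Without day 0 replicate 2, the number of members called was 35.

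From day 3 to day 6, when the preadipocytes left the induction cocktail, 53 members fell and 2 rose, against 31.9% and 32.8% of all genes, with a median of -0.29. A fold of 1.5 was passed by 8 members and 46.6% of all genes. The share of pseudogene reads, given below, also stepped between these days. If libraries of days 0 and 3 were prepared apart from those of days 6 and 9, day and preparation cannot be told apart here. Rps26 fell from 435.4, 467.6 and 463.8 CPM to 233.4, 260.6 and 236.7 CPM (-0.84 ± 0.09, adjusted p = 5.61e-06). Rpl13a, of the large subunit and known for translational silencing in inflammation, fell from 1153, 1169 and 1125 CPM to 687.9, 717.2 and 700.0 CPM (-0.65 ± 0.09, adjusted p = 3.69e-05). Rpl39l rose from 7.53, 4.95 and 4.37 CPM to 12.8, 11.9 and 9.25 CPM (1.08 ± 0.31, adjusted p = 0.0108). Rpl9 had 0.23 ± 0.09 (adjusted p = 0.0418), a call that was lost when the counts of its pseudogene symbols were added (0.17, adjusted p = 0.128) and under library size scaling (0.06), limma-voom (0.17), no filter on low counts and TMM factors made without the members. It was also lost without any 1 library of days 3, 6 or 9 and without day 0 replicate 3 (0.19 to 0.25, adjusted p = 0.0514 to 0.141).

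From day 6 to day 9 a further 31 members fell and 0 rose, against 13.3% of all genes lower, with a median of -0.23. Only Rps2 passed a fold of 1.5, which 14.0% of all genes did, with 890.6, 934.6 and 884.7 CPM at day 6 and 586.2, 538.0 and 546.1 CPM at day 9 (-0.70 ± 0.07, adjusted p = 8.31e-05). Rpl7a, a protein of the large subunit, fell by 0.46 ± 0.07 (adjusted p = 0.000943). Same-numbered libraries of these days deviated together. A fit to the 6 libraries alone, added after the data were seen, called 49 members lower, and with the replicate number as a block 54. In the fit over all WT days, leaving out any 1 of these 6 libraries gave 11 to 17 calls.

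From start to end of differentiation 47 members fell and 3 rose in WT preadipocytes, against 35.5% and 34.8% of all genes, with a median of -0.25 and 9 members (52.7% of all genes) past a fold of 1.5. In DKO preadipocytes 62 fell and 1 rose, against 35.8% and 34.7%, with a median of -0.37 and 12 members (55.6% of all genes) past that fold. The difference between these counts was not tested other than by the interaction above. Rps2 fell by 0.84 ± 0.07 in WT and 0.88 ± 0.07 in DKO cells, and Rps26 by 0.73 ± 0.09 and 0.88 ± 0.08. Rpl9, the member that rose in DKO cells, was at 467.6 ± 65.1 CPM at day 0 and 584.1 ± 15 CPM at day 9 in WT cells and at 441.9 ± 35.0 and 586.4 ± 41.0 CPM in DKO cells, log2 fold changes of 0.32 ± 0.09 and 0.42 ± 0.08. With library size scaling these were 0.17 and 0.16 and neither was called. In WT cells Rps9 (0.31 ± 0.08) and Rpl39l (0.77 ± 0.31) also rose. Rps9 was not called with library size scaling (0.15, adjusted p = 0.101), and the libraries of Rpl39l overlapped.

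In WT MEFs the members rose by day 4 and fell after day 8. From day 0 to day 4, 58 of 80 members rose and 2 fell, against 26.8% and 26.9% of all genes, with a median of 0.23 and 3 members (33.2% of all genes) past a fold of 1.5. Rps21 rose from 109.4, 109.0 and 121.1 CPM to 177.2, 173.6 and 181.0 CPM (0.55 ± 0.06, adjusted p = 3.17e-05). Rps6 rose from 545.7, 577.8 and 549.8 CPM to 825.1, 848.3 and 835.6 CPM (0.48 ± 0.06, adjusted p = 9.06e-05), and Rpl9 by 0.47 ± 0.06 (adjusted p = 3.65e-05). Rps27l rose by 0.81 ± 0.11 (adjusted p = 0.000117), in the direction opposite to that in preadipocytes. Rps4l fell by 1.26 ± 0.23 (adjusted p = 0.000735), and Rpl22 by 0.17 ± 0.05 with overlapping libraries, a call that was lost with library size scaling (-0.04), limma-voom (-0.08), no filter, and without replicate 2 of day 0 or of day 4. Of the 53 members higher in preadipocytes at day 3 and the 58 higher in MEFs at day 4, 44 were in both, 83.0% and 75.9% of these lists, where the second list holds 72.5% of all tested members.

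From day 4 to day 8, still in the cocktail, 0 members and 3.07% of all genes were called in WT MEFs (median 0.05). An unadjusted p under 0.05 was found for 16 members and 28.0% of all genes. DESeq2 called 10 higher and 1 lower. Leaving out day 4 replicate 1 or day 8 replicate 2 gave 12 and 10 calls. Over all genes these libraries stood apart from their groups. Day 4 replicate 1 had a chi-square per degree of freedom of 84.31 and 85.76 to replicates 2 and 3, against 6.74 between those. For day 8 replicate 2 it was 89.82 and 96.33, against 2.16 between replicates 1 and 3. So the lack of calls does not show that the members stayed level. Then from day 8 to day 12, with insulin and T3 only, 76 of 80 members fell and 0 rose, against 19.1% of all genes lower, with a median of -0.51. A fold of 1.5 was passed by 25 members and 21.2% of all genes. The members not called were the paralogues Rpl32l, Rpl39l, Rpl6l and Rps4l. Rps12 fell from 651.9, 730.0 and 665.5 CPM to 363.1, 357.9 and 358.5 CPM (-0.91 ± 0.06, adjusted p = 1.74e-06). Rpl36a, the X-linked paralogue of Rpl36al, fell from 259.7, 257.4 and 250.6 CPM to 129.7, 134.3 and 138.2 CPM (-0.92 ± 0.07, adjusted p = 5.55e-06). Rps2 fell by 0.80 ± 0.06 (adjusted p = 2.33e-06). The small subunit had the lower median (-0.59 against -0.44 for the large subunit), and this difference was not tested.

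Between days 0 and 12 of WT MEFs 51 members fell and 1, Rpl39l, rose, against 24.7% and 19.7% of all genes, with a median of -0.23 and 1 member (26.3% of all genes) past a fold of 1.5. The median of all genes was -0.075. Rpl12 fell by 0.42 ± 0.06 and Rps20 by 0.41 ± 0.06 (adjusted p = 0.000104 and 0.00016), and Rps2 by 0.35 ± 0.06. Without day 0 replicate 2 the members called were 18, and without day 4 replicate 1, 2 or 3 they were 34, 26 and 27. DKO MEFs had 11 lower members and 1 higher, again Rpl39l (1.76 ± 0.34), against 14.6% and 21.2% of all genes, with a median of -0.23 and 1 member (25.6% of all genes) past a fold of 1.5. In DKO MEFs the median of all genes was -0.011. Rps20 fell by 0.57 ± 0.13, Rps7 by 0.39 ± 0.10 and Rpl31 by 0.39 ± 0.11 (adjusted p = 0.00648, 0.0114 and 0.0194). The count of calls in DKO MEFs was 47 with DESeq2, 57 with limma-voom and 66 with library size scaling, where the median reached -0.49. In WT MEFs it was 18 with no filter and 28 with TMM factors made without the members. Calls in DKO MEFs were 6, 7 and 26 without day 0 replicate 1, 2 or 3, 20 and 23 without day 4 replicate 2 or 3, 23 without day 8 replicate 1 and 4 without day 12 replicate 2. Of the 47 members lower in WT preadipocytes over the whole course and the 51 lower in WT MEFs, 39 were in both, 83.0% and 76.5% of these lists, where the second list holds 63.8% of all tested members.

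Lists beside the members moved as follows in WT cells. Of all genes 20.7% were higher and 21.4% lower from day 0 to 3 of preadipocytes. From day 3 to 6 these shares were 32.8% and 31.9%, and from day 6 to 9 they were 13.7% and 13.3%. In MEFs they were 26.8% and 26.9% from day 0 to 4 and 20.7% and 19.1% from day 8 to 12. Initiation factors and mitochondrial ribosomal proteins lay below these shares in both directions at day 3. Of the biogenesis genes 29 rose and 1 fell from day 0 to day 3 in preadipocytes, 17 rose and 6 fell from day 3 to day 6, and 42 fell from day 6 to day 9. In MEFs 47 rose and 2 fell from day 0 to day 4 and 44 fell from day 8 to day 12. Nop56, a core protein of box C/D particles, rose by 1.1 ± 0.06 at day 4 and fell by 1.06 ± 0.06 at day 12. Myc, a driver of ribosome synthesis, rose by 1.21 ± 0.15 in preadipocytes at day 3 and by 1.62 ± 0.10 in MEFs at day 4, and fell by 0.47 ± 0.14 from day 3 to 6, by 0.53 ± 0.15 from day 6 to 9 and by 0.99 ± 0.10 from day 8 to 12. Elongation factors and TOP mRNAs had 5 higher and 2 lower genes of 15 at day 3, 9 lower at day 6, 9 lower at day 9, 9 higher in MEFs at day 4 and 12 lower at day 12. Initiation factors had 6 and 6 of 36, then 15 higher and 4 lower, then 12 lower in preadipocytes, and 14 higher and 5 lower, then 2 higher and 13 lower in MEFs over the same steps. Mitochondrial ribosomal proteins rose in 15 and fell in 7 cases by day 3, 75 and 1 from there to day 6, and 1 and 12 to day 9, and in MEFs 43 and 2 by day 4 and 30 and 4 from day 8 to day 12. Markers of other cell types moved in the same steps. In WT preadipocytes all 5 macrophage markers rose from day 3 to day 6 (summed 60.55 to 222.3 CPM at day 3 and 5104 to 8649 CPM at day 6), after 3 had fallen by day 3, and all 4 fibroblast markers fell (24710 to 43000 and 11700 to 14150 CPM). In WT MEFs 4 of 5 macrophage and all 4 fibroblast markers fell by day 4, and 3 of 5 macrophage markers rose from day 8 to day 12. Their part in the changes of the members was not tested. All 30 cell cycle genes fell from day 3 to day 6 in preadipocytes and from day 8 to day 12 in MEFs, after 29 had risen by day 3.

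The paralogues Rpl39l and Rps27l had patterns of their own. Per length, Rpl39l stood at 2.77% ± 1.94, 1.77% ± 0.495, 4.97% ± 0.819 and 6.33% ± 0.844 of Rpl39 in WT preadipocytes at days 0, 3, 6 and 9 (mean ± SD, n = 3), and at 3.70% ± 1.91, 3.87% ± 2.39, 8.46% ± 2 and 9.70% ± 1.36 in DKO cells. WT MEFs had 1.93% ± 0.196, 1.68% ± 0.0961, 2.71% ± 0.942 and 4.47% ± 0.159 and DKO MEFs 2.7% ± 0.316, 2.74% ± 0.329, 4.62% ± 2.55 and 12.3% ± 3.17 at days 0, 4, 8 and 12. The ratio was thus highest at the last day in each of the 4 series, and DKO libraries lay above all WT libraries at days 3, 6 and 9 of preadipocytes and at days 0, 4 and 12 of MEFs, with overlap at day 0 of preadipocytes and day 8 of MEFs. Single DKO libraries were high for Rpl39l, replicate 1 at day 3 (18.4 CPM against 7.83 and 8.38) and replicate 2 at day 6 of preadipocytes (21.3 against 12.2 and 12.9). RSEM may divide reads between Rpl39 and Rpl39l, and that part was not tested.

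Rps27l was at 20.1% to 32.3% of Rps27 per length in the group means of WT preadipocytes and at 20.3% to 29.7% in WT MEFs. In DKO preadipocytes it was 33.6% ± 3.45 at day 6 and 32.0% ± 2.67 at day 9, against 24.8% ± 1.82 and 23.8% ± 0.695 in WT cells, with no overlap between libraries. The gene itself was not called there (0.16 ± 0.08 and 0.18 ± 0.09, adjusted p = 0.199 and 0.264). DKO replicate 2 of MEFs at day 0 stood apart with 99.1 CPM, against 51.0 and 48.6 CPM in the other DKO libraries and 53.5 to 59.5 CPM in WT libraries.

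**Figure D4:**
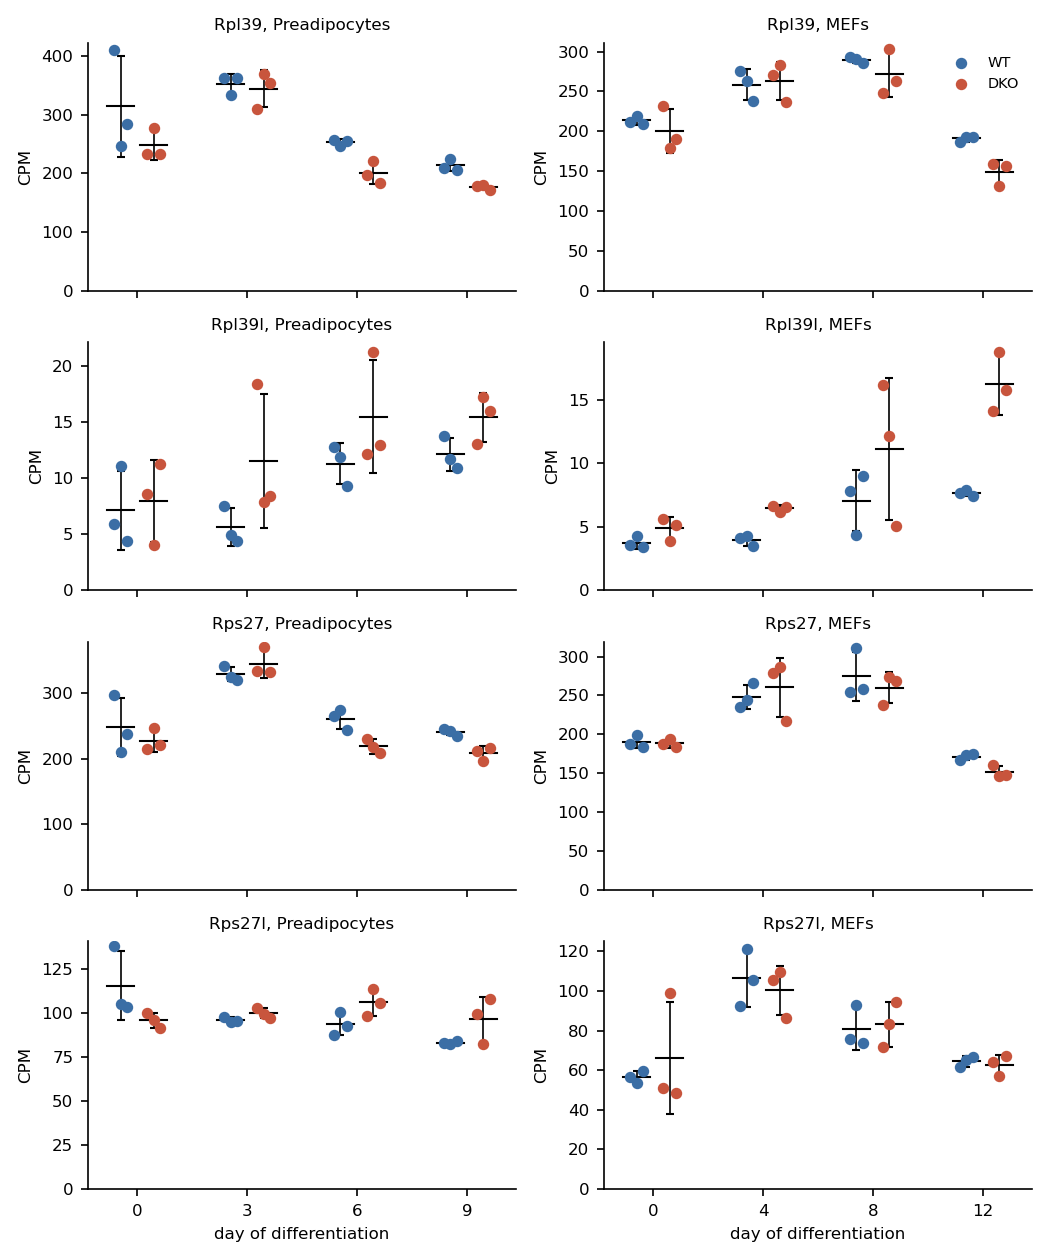
CPM (y axis, from 0) of Rpl39, Rpl39l, Rps27 and Rps27l by day (x axis) in preadipocytes (left) and MEFs (right). Points are libraries (blue WT, red DKO), lines and bars the mean ± SD of 3. Rpl39l in MEFs at day 12 is at 14.1 to 18.8 CPM in DKO and 7.45 to 7.92 CPM in WT libraries, while Rpl39 is lower in DKO libraries.

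Before differentiation WT preadipocytes had more ribosomal protein mRNA than WT MEFs. At day 0, 56 of 80 members were higher in preadipocytes and 0 lower, against 29.9% of all genes higher, with a median of 0.33, and 10 members (38.6% of all genes) passed a fold of 1.5. The quantile-normalized limma-voom fit called 23 higher and 4 lower (median 0.14). Rps26 had 410.6, 339.3 and 326.1 CPM in preadipocytes and 182.0, 195.4 and 171.7 CPM in MEFs (0.88 ± 0.10, adjusted p = 0.000145). Rpl41, the smallest ribosomal protein, had 433.3, 407.8 and 397.3 CPM against 228.0, 261.7 and 227.9 CPM (0.70 ± 0.08, adjusted p = 0.000133). The pseudogene Rpl6l had 13.9 to 15.2 CPM against 3.62 to 4.47 CPM (1.72 ± 0.12, adjusted p = 1.52e-05). Rps27l was higher by 0.94 ± 0.12 (adjusted p = 0.000292). Other lists differed too, with 33 of 61 biogenesis genes, 11 of 15 elongation factors and TOP mRNAs, 22 of 36 initiation factors and 32 of 78 mitochondrial ribosomal proteins higher and 4, 0, 1 and 2 lower. Macrophage markers summed to 121.8 to 462.7 CPM in preadipocytes and 5475 to 7378 CPM in MEFs, and muscle markers to 94.3 to 114.3 and 1.12 to 2.16 CPM. Of the 4 muscle markers Myh3, Myod1 and Myog were under 0.5 CPM in both cell types, so the preadipocyte sum was almost all Acta1. The tables of the cell types were counted separately, and cell type and processing cannot be told apart here.

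Pseudogene reads differed between sets of libraries. Counts of the 298 symbols with -ps amounted to 2.05% to 2.49% of the members' counts in the 12 preadipocyte libraries of days 0 and 3 (median 2.26%), to 0.762% to 1.03% in the 12 of days 6 and 9 (median 0.874%) and to 0.602% to 0.876% in the 24 MEF libraries (median 0.728%). For 14 of the 59 members with such symbols they exceeded 5% of the member's counts at days 0 and 3 of preadipocytes, for 1 at days 6 and 9 and for 0 in MEFs. Rpl17 reached 10.4%, 5.32% and 4.65% and Rpl9 6.39%, 2.43% and 1.83% in these sets. The step falls between days 3 and 6 of preadipocytes and between the cell types at day 0, and it moves with Rpl6l, which fell by 1.81 ± 0.15 from day 3 to day 6 (15.9, 19.7 and 20.8 against 5.78, 4.10 and 5.52 CPM). Its part in the changes of the members was not tested. Adding these counts to the members left the counts of calls of every comparison within 1.5 times. Pseudogenes under other symbols, Rpl6l, Rpl32l and Rps4l among them, are not in the -ps counts. So these counts do not cover all pseudogene reads. Within days 6 and 9 of preadipocytes the ratio was also lower in DKO than in WT libraries, at 0.816% to 0.842% against 0.905% to 0.97% and at 0.762% to 0.808% against 0.914% to 1.03%, without overlap. The same held in MEFs at day 8 (0.627% to 0.692% against 0.707% to 0.814%), while at day 12 the genotypes overlapped (0.691% to 0.861% against 0.636% to 0.805%).

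**Figure D5:**
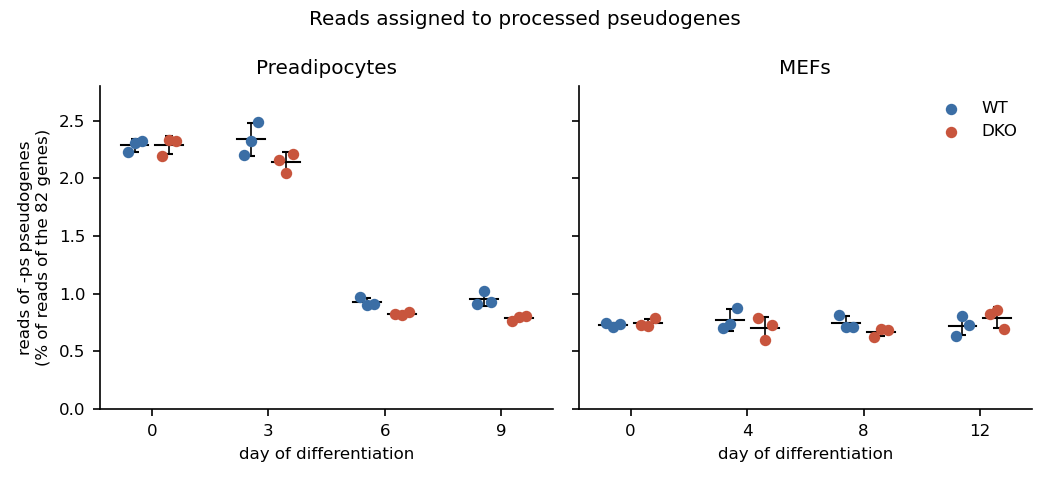
Counts of pseudogenes with -ps symbols as a percentage of the counts of the 82 genes (y axis) by day (x axis). Points are libraries (blue WT, red DKO), lines and bars the mean ± SD of 3. Preadipocyte libraries of days 0 and 3 lie at 2.05% to 2.49%, and all others at or below 1.03%.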

How the data were processed

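The authors sequenced strand-specific 50 bp paired-end libraries (polyA RNA per the labels, a total RNA kit per the methods), demultiplexed them with bcl2fastq 2.17, trimmed with Cutadapt 1.18, aligned to mm10 with STAR 2.7.0f and deposited RSEM 1.3.0 expected counts per gene, 1 table per cell type. The annotation used for counting is not given in the sources used here, and all 55450 identifiers matched GENCODE M21. The expected counts were rounded, filtered (filterByExpr), TMM normalized and fitted with edgeR 4.0.16 (robust quasi-likelihood, R 4.3.3), per day for genotype, over all days of 1 genotype for time, over all libraries of a cell type for genotype by day, and over both tables at day 0 for cell type. Alternatives used DESeq2 1.42.0, limma 3.58.1 (voom, quantile), library size scaling, no filter, TMM without the members, added -ps counts, a replicate block and leaving out libraries. Only a genotype, a time and a genotype by day comparison were first tested on simulated data, with edgeR, DESeq2, limma or the replicate block. The cell type comparison and the other alternatives were not tested in this way. Replicates of a group differed by more than sampling noise (chi-square per degree of freedom 2.16 to 168.22). Same-numbered libraries paired only between days 6 and 9 of each genotype and days 0 and 3 of DKO preadipocytes, where the 3 correlations of their deviations were 0.276 to 0.608 (WT), 0.464 to 0.599 and 0.518 to 0.645. Named are members fixed by role, per comparison the 3 called members of smallest p in each direction without overlap, extremes in level or change, and the 2 leading genes of each list. Other members named were chosen after their values were seen. The members and the lists (initiation, elongation and TOP mRNAs, biogenesis, MYC and mTOR regulators, cell cycle, mitochondrial and other ribosomal proteins, markers) were chosen with earlier results of these data known, and no list was tested as a set. Counts cover all members, and values of some genes are not reported here.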

Additional observations from a re-analysis of the deposited data

How the results depend on the processing

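DKO against WT in MEFs at day 12 (68 members called) had 68 to 74 under the alternatives and 57 to 70 without single libraries, and WT MEFs from day 8 to 12 (76) had 75 to 76 and 74 to 76. DKO against WT in preadipocytes at day 6 (13) gave 33 with DESeq2, 48 with library size scaling, 30 with limma-voom, 6 with no filter and 22 with the replicate block, and 0 to 5 without single libraries. At day 9 (5) these were 52, 41, 15, 16 and 0, and 0 to 40. WT preadipocytes from day 6 to 9 (31) gave 49 with the libraries of days 6 and 9 only, 54 with these and the replicate block, and 11 to 34 without single libraries. Genotype by day in preadipocytes (1) gave 15 with DESeq2, 8 with library size, 7 with limma-voom, 0 with no filter and 0 to 4 without single libraries, and in MEFs (0) 2 with DESeq2 and 0 to 3. DESeq2 called 1 member in MEFs at day 4 and 11 from day 4 to 8, where library size gave 4, limma-voom 1 and single libraries left out 0 to 12. WT MEFs from day 0 to 12 (52) gave 18 with no filter, 28 with TMM without the members and 18 to 50 without single libraries. DKO MEFs from day 0 to 12 (12) gave 47 with DESeq2, 66 with library size, 57 with limma-voom, 27 with no filter, 30 with TMM without the members, 6 with the block and 4 to 26 without single libraries. WT preadipocytes against MEFs at day 0 (56) gave 27 with limma-voom and 39 to 63 without single libraries. Without single libraries, preadipocytes from day 0 to 3 (54) had 35 to 64 and DKO against WT MEFs at day 0 (0) had 0 to 1. The block changed no other count by over 1.5 times, and the causes were not tested.

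Of 1289 values of 79 named genes and comparisons under the alternatives, 1198 kept direction and side of the threshold, 72 lost a call, 13 gained a call and 6 turned direction. These were Rplp2 in MEFs at day 12 (0.02), at -0.03 with library size, -0.02 with limma-voom, and -0.02, -0.03 and -0.01 without WT replicate 2, WT replicate 3 and DKO replicate 2 (range -0.03 to 0.12 without single libraries), and Rps27l there (-0.04), at 0.02 without DKO replicate 2 (range -0.09 to 0.02). The median of the members kept its sign in every comparison where over 1 member was called. Library size scaling shifted the median of all genes by -0.27 to 0.17. Relative to it the members' medians were -0.19 and -0.24 in DKO preadipocytes at days 6 and 9 and -0.23 in MEFs at day 12. Depth limits Rpl32l, Rpl6l and Rpl39l most, which have the fewest counts of the 80 tested members.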

Other observations

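Rplp0, which the rule leaves out, is the third protein of the ribosomal stalk, the anchor of Rplp1 and Rplp2 and a common reference gene in quantitative PCR. Its level was higher in DKO than in WT libraries at every day. In preadipocytes at day 3 it had 1361, 1435 and 1412 CPM in WT and 2602, 2691 and 2568 CPM in DKO libraries, and the log2 fold changes at days 0, 3, 6 and 9 were 0.71 ± 0.08, 0.88 ± 0.09, 0.54 ± 0.09 and 0.46 ± 0.08 (SE, edgeR's quasi-likelihood test, adjusted p = 0.0322, 0.0183, 0.00869 and 0.0427). In MEFs they were 0.63 ± 0.11, 0.81 ± 0.12 and 0.77 ± 0.08 at days 0, 4 and 8, which did not pass (adjusted p = 0.162, 0.106 and 0.0591). The day 12 change of 0.32 ± 0.04 passed (adjusted p = 1.82e-05). No WT library overlapped a DKO library at any of these days. With time it rose by 0.66 ± 0.07 from day 0 to day 3 of WT preadipocytes and fell by 0.74 ± 0.06 from day 8 to day 12 of WT MEFs.

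Of the other ribosomal protein genes outside the rule, Rps3a1 (-0.27 ± 0.05), Rack1, a scaffold on the small subunit (-0.26 ± 0.04) and Rpl22l1 (-0.20 ± 0.05) were lower in DKO MEFs at day 12, and Fau (-0.02 ± 0.05), Rpl7l1 (-0.02 ± 0.05) and Rpl36al (0.08 ± 0.06) did not pass the test.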
